A study of Mus musculus with 2 samples.

Results

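Mir128-1 and Mir128-2 are the mouse genes of the microRNA miR-128, and each lies inside an intron of a larger gene, R3hdm1 for Mir128-1 and Arpp21 for Mir128-2. They were found by name among the microRNA genes of the GENCODE mouse annotation and are 2 of the 2202 genes counted. The material was gastrocnemius, the large calf muscle, of female B6CASTF1/J mice aged 2 months, which are first-generation hybrids of C57BL/6J and CAST/EiJ. Small RNA of under 30 nt was sequenced in 2 libraries of 1 group, labelled biological replicates 1 and 2, and there is no treatment and no second condition. The labels number the females separately but give both the same donor code, and p-values below measure counting error and not a spread between animals.

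MicroRNAs are cut from hairpin transcripts, and the RNA-bound mature strand pairs with messenger RNAs through its seed, bases 2 to 8. A microRNA inside a host gene can be made from the transcript of that gene. miR-128 is best known as a neuronal microRNA, and it has also been described in skeletal and cardiac muscle. R3hdm1 and Arpp21 both encode proteins with an R3H domain, a fold that binds single-stranded nucleic acids, and Arpp21 is a phosphoprotein known from neurons of the striatum.

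The sequences are shown because they set which reads can be assigned to 1 of the 2 genes. They are from RefSeq on the mm10 assembly, matched for both genes, and capitals mark the seed of each mature strand.
miR-128-1-5p: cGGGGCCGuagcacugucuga
miR-128-2-5p: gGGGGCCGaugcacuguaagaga
miR-128-3p: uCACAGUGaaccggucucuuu
The 3p strand, the one for which the microRNA is known, was identical over all 21 bases at both loci. The 5p strands, 21 and 23 bases long, differed at 5 of the 21 bases they have in common. Counted from the 5′ end, with the base of miR-128-1-5p first, these were C1G, U9A, A10U, C18A and U19A. None of the 5 falls within the seed, so the 5p strands share a seed with each other although their remaining bases set them apart. Among the 1679 mature names in the RefSeq table, no other mouse microRNA had the seed of the 3p strand, and none had that of the 5p strands.

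The hairpins differed around the shared 3p strand, and capitals mark the longest stretch that both hold.
Mir128-1 hairpin: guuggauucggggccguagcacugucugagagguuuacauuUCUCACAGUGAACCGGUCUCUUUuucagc
Mir128-2 hairpin: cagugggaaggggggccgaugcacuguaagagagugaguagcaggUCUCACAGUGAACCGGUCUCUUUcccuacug
The stretch is 23 bases long, from base 42 to 64 of the Mir128-1 hairpin and from base 46 to 68 of the Mir128-2 hairpin. In a global alignment, 55 of 77 positions (71.4%) were identical. Of the 50 stretches of 21 bases in the Mir128-1 hairpin, 3 were also in Mir128-2, and of the 49 stretches of 22 bases, 2 were. From 24 bases on, no stretch was shared. Read from the first base of the 3p strand, the hairpins were identical for lengths of 18 to 21 bases and differed from 22 bases on. No stretch of 18 to 28 bases of either hairpin was found in the hairpin of any of the other counted microRNA genes, searched in the given orientation, and the rest of the genome was not searched. The deposited counts hold only reads placed in 1 gene, and they are given per gene, so the strand and length of the reads behind them are not resolved here. Of the reads listed, 70.07% (replicate 1) and 72.33% (replicate 2) had several matching places and so entered no gene, and the part of miR-128-3p among them was not tested.

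**Figure D1:**
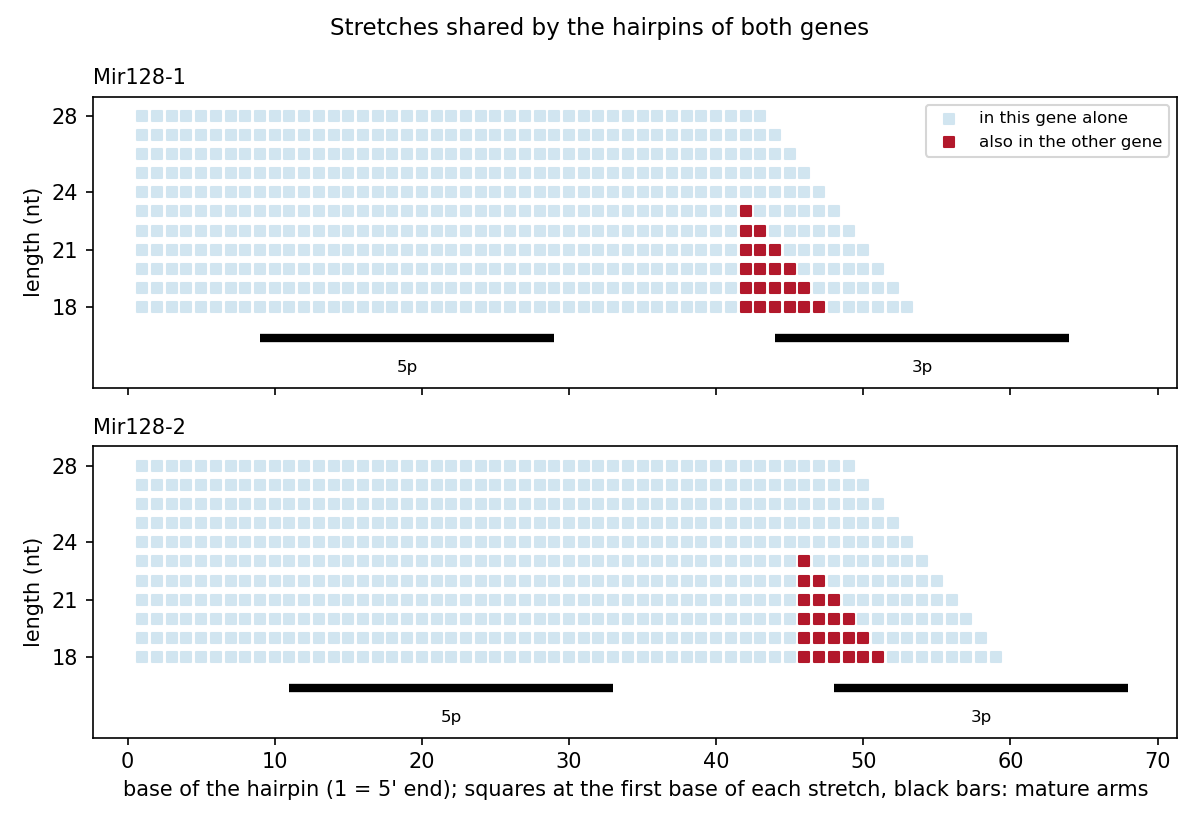
Stretches of 18 to 28 nt in the hairpins of Mir128-1 (top) and Mir128-2 (bottom), placed by their first base on the horizontal axis and their length on the vertical axis. Dark red squares are stretches that the other gene also holds, light squares are stretches in that gene alone of the 2, and black bars are the mature strands. The shared stretches all begin at or near the start of the 3p strand and end at a length of 23 nt, while the whole 5p strand lies among the light squares.

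Mir128-1 (ENSMUSG00000065520.2) lies on the plus strand of chromosome 1, from 128202361 to 128202430 in mm10. It is in intron 19 of the R3hdm1 transcript R3hdm1-201, which is 14107 bases long, 5263 bases after the preceding exon. Mir128-2 (ENSMUSG00000065441.2) is read from the minus strand and spans 112118636 to 112118711 of chromosome 9. It is in intron 19 of the Arpp21 transcript Arpp21-223, which is 51873 bases long, only 471 bases after the preceding exon. Both genes are on the strand of their host, and no annotated exon of a host transcript that spans them overlaps either one. No other counted microRNA gene lies within 10000 bp of either, so each is a microRNA gene on its own and not part of a cluster.

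Both genes were detected in both libraries, and in reads placed in 1 gene Mir128-1 was the higher by about 6 to 7 times. Own-strand counts of all microRNA genes came to 1950204 in replicate 1 and 2291821 in replicate 2, and levels are given as CPM, the counts scaled to these totals. Mir128-1 had 961 counts in replicate 1 and 1873 in replicate 2. These are 493 CPM (95% exact Clopper-Pearson interval 462 to 525) and 817 CPM (781 to 855), a mean of 655 ± 229 CPM (SD, n = 2). Mir128-2 had 138 and 307 counts, or 70.8 CPM (59.4 to 83.6) and 134 CPM (119 to 150), a mean of 102 ± 44.7 CPM (SD, n = 2). Replicate 2 was the higher library for both genes, and the lowest value of Mir128-1 was above the highest value of Mir128-2. Together they took 0.0564% of counts in replicate 1 and 0.0951% in replicate 2, a sum of 757 ± 274 CPM (SD, n = 2). No read was counted on the opposite strand of either gene, where 3 counts would have been 1.54 and 1.31 CPM. Intervals and floors cover counting error within 1 library only, and they treat each read as independent. Amplified reads are not independent molecules, so the intervals can be too narrow.

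**Figure D2:**
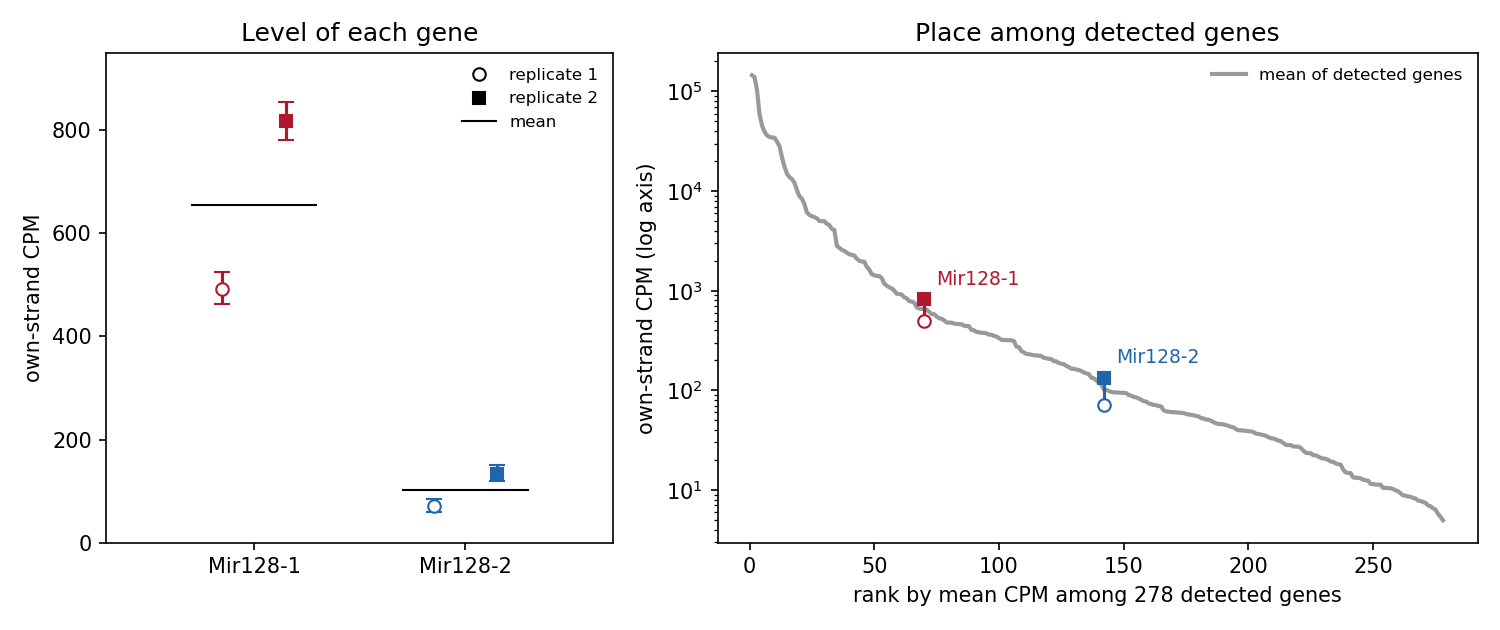
Left, own-strand CPM of Mir128-1 and Mir128-2 in replicate 1 (open circles) and replicate 2 (filled squares), with 95% exact Clopper-Pearson intervals and the mean of both as a line. Right, the same values on a log axis at the rank of each gene among the 278 detected genes, whose means are the grey curve. Mir128-1, at 493 and 817 CPM, lies at rank 70 and Mir128-2, at 70.8 and 134 CPM, at rank 142.

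Of the 2202 genes, 278 had at least 10 counts in each library and are called detected. By mean CPM, Mir128-1 was at rank 70 of these, at rank 83 in replicate 1 and at rank 64 in replicate 2. Mir128-2 was at rank 142, and at ranks 168 and 131. The neighbours of Mir128-1 in the order of means were Mir872 above (657 ± 36.1 CPM) and Mir221 below (647 ± 277 CPM, SD, n = 2 each), and the libraries of all 3 overlapped. The neighbours of Mir128-2 were Mir30c-1 (115 ± 30.2 CPM) and Mir493 (101 ± 5.22 CPM, SD, n = 2 each), which also overlapped it. The range over both libraries overlapped that of 27 other detected genes for Mir128-1 and of 46 for Mir128-2, so the ranks are approximate.

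Within each library the difference between the placed counts of the genes was far beyond counting error. In replicate 1, Mir128-1 held 87.4% of the counts of the pair, with a 95% exact Clopper-Pearson interval of 85.3 to 89.3. In replicate 2 it held 85.9%, with an interval of 84.4 to 87.4, and the mean share was 86.7% ± 1.08 (SD, n = 2). The ratio of Mir128-1 to Mir128-2 was 6.96 (5.82 to 8.39) and 6.10 (5.40 to 6.91). Per base of the hairpin, 70 bases against 76, it was 7.56 and 6.62. The number of reads of a mature strand need not follow hairpin length, so the ratio without this scaling is the one used. A two-sided exact binomial test against equal counts gave p = 2.83e-152 in replicate 1 and p = 2.21e-273 in replicate 2 (2.83e-152 and 4.41e-273 with Benjamini-Hochberg adjustment over both). Equal counts would stand for equal output only if the same part of the reads of each gene could be placed, which was not tested. The p-values are therefore of the placed counts and not of the output of the genes. The balance of the pair was much the same in both libraries while its level was not. The odds ratio of Mir128-1 to Mir128-2 in replicate 2 over replicate 1 was 0.876, and the difference missed the threshold in a two-sided Fisher's exact test (p = 0.235). The ratio describes reads that could be placed in 1 gene, and reads of the identical 3p strand that were set aside could come from either gene. The base after the 3p strand is u in the Mir128-1 hairpin and c in the Mir128-2 hairpin. A 3p read with an added u at its end would therefore match Mir128-1, whichever gene it came from. The part of such reads in the ratio was not tested.

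All detected genes were tested between the libraries, a comparison of these samples and not of conditions. The log2 ratio of replicate 2 over replicate 1 was 0.78 for Mir128-1, with a counting SE of 0.0572, or a ratio of 1.71 (95% exact interval 1.58 to 1.85). For Mir128-2 it was 0.97 (SE 0.148), or a ratio of 1.96 (1.60 to 2.41). A call required an adjusted p under 0.05 in a two-sided exact binomial test and a difference of at least 2-fold. By this rule 0 of the 2 genes was called, against 33 of the 278 detected genes, or 11.9%. Without the fold minimum both passed, with adjusted exact p = 5.29e-43 for Mir128-1 and 5.55e-11 for Mir128-2, as did 55.0% of detected genes, and 24.8% in the direction of higher in replicate 2. A share of that size in the background makes a pass without the fold minimum common in these libraries. At a minimum of 1.5-fold both genes were called higher, as were 7.19% of detected genes, while 17.3% were called lower, 24.5% in all. Only 18 detected genes had a higher ratio than Mir128-1, and 9 had a higher ratio than Mir128-2. The difference between the 2 log2 ratios, 0.19, was close to its counting SE of 0.158.

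The test above allows for no spread between samples. With an assumed coefficient of variation of 0.2, edgeR's exact test gave adjusted p = 0.393 for Mir128-1 and 0.229 for Mir128-2. With the coefficient estimated from these libraries, 0.351, the adjusted p was 1 for both, but that estimate comes from the same differences it is used to test and leaves 1 library on each side. Over the settings without such a spread, the adjusted exact p stayed at or below 5.08e-10. Mir128-2 lies near the 2-fold minimum, and scaling by DESeq2 size factors, which put its log2 ratio at 1.07, led to a call. That scaling shifts every gene by the same amount and moved the median of all detected genes from −0.02 to 0.09, so the call comes from the common shift.

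The detected genes known from neurons and glia differed between the libraries in the opposite direction to the miR-128 genes. Of 21 genes on a list of neural and glial microRNAs, 5 were detected, and 5 of 5 were lower in replicate 2, with a median of −1.92 on the log2 scale against −0.02 over all detected genes. At the 2-fold rule 4 of the 5 were called, all lower, against a background of 9.35% called lower. Mir338, known from myelinating glia, had 5989 counts in replicate 1 and 1959 in replicate 2. Mir219a-2, also taken as a marker of these glia, was not detected by the count minimum, with 7 and 10 counts. Among the other listed genes under that minimum with any count, only Mir218-1 (1 and 4 counts) had a higher CPM in replicate 2. The rest had a lower CPM, such as Mir129-1 (31 and 6 counts), though Mir153 and Mir219a-1 had equal counts in both libraries. Mir138-1 and Mir138-2, a pair with 1 mature name as the miR-128 genes are, had 247 and 64 counts and 121 and 36 counts. They were lower by −2.13 (SE 0.202) and −1.92 (SE 0.272) on the log2 scale, and so the other way from Mir128-1 and Mir128-2. Mir137, a neuronal microRNA, had 143 and 34 counts, and Mir132, induced by neuronal activity, had 515 and 497. The list summed to 3649 CPM in replicate 1 and 1154 CPM in replicate 2, and to 578 and 299 CPM without Mir338. The sum without Mir338 was above the level of Mir128-1 in replicate 1 and below it in replicate 2. The 3 genes of Mir124a and the 3 of Mir9, defining microRNAs of neurons, had no count in either library, but each set shares its name among 3 loci and reads placed in several are counted in none. The part of nerve in the level of the miR-128 genes was not tested. In bulk tissue, fewer cells of a type and less microRNA per cell cannot be told apart.

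Genes known from striated muscle were on the same side as the miR-128 genes. Of 10 listed, 9 were detected and 9 of 9 had higher values in replicate 2, as did 136 of all 278 detected genes. Their median was 0.63 on the log2 scale. At the 2-fold rule 2 were called, both higher, against a background of 2.52% called higher, and without a fold minimum 6 of the 9 passed, all higher, against 24.8% of detected genes. Mir206, a microRNA of skeletal muscle and the highest of the list in placed reads, differed by 0.70. Mir486, in an intron of the ankyrin gene Ank1, differed by 0.92. The calls were Mir499 and Mir208b, carried in the slow myosin genes Myh7b and Myh7, at 3.03 (SE 0.0612) and 2.69 (SE 0.0996). The other 5 detected genes of the list, Mir133a-1, Mir1a-2, Mir133b, Mir1a-1 and Mir133a-2, differed by 0.63, 0.53, 0.39, 0.37 and 0.18. Mir1a and Mir133a each share their name between 2 loci, and reads placed in both are counted in neither. Their counts therefore do not give the level of these microRNAs beside Mir206. Mir128-1 (0.78) and Mir128-2 (0.97) thus lay within the range of the list, which genes outside it share. With 2 libraries no correlation across samples can be given. The part of muscle or of slow fibres in the difference of the miR-128 genes was not tested.

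**Figure D3:**
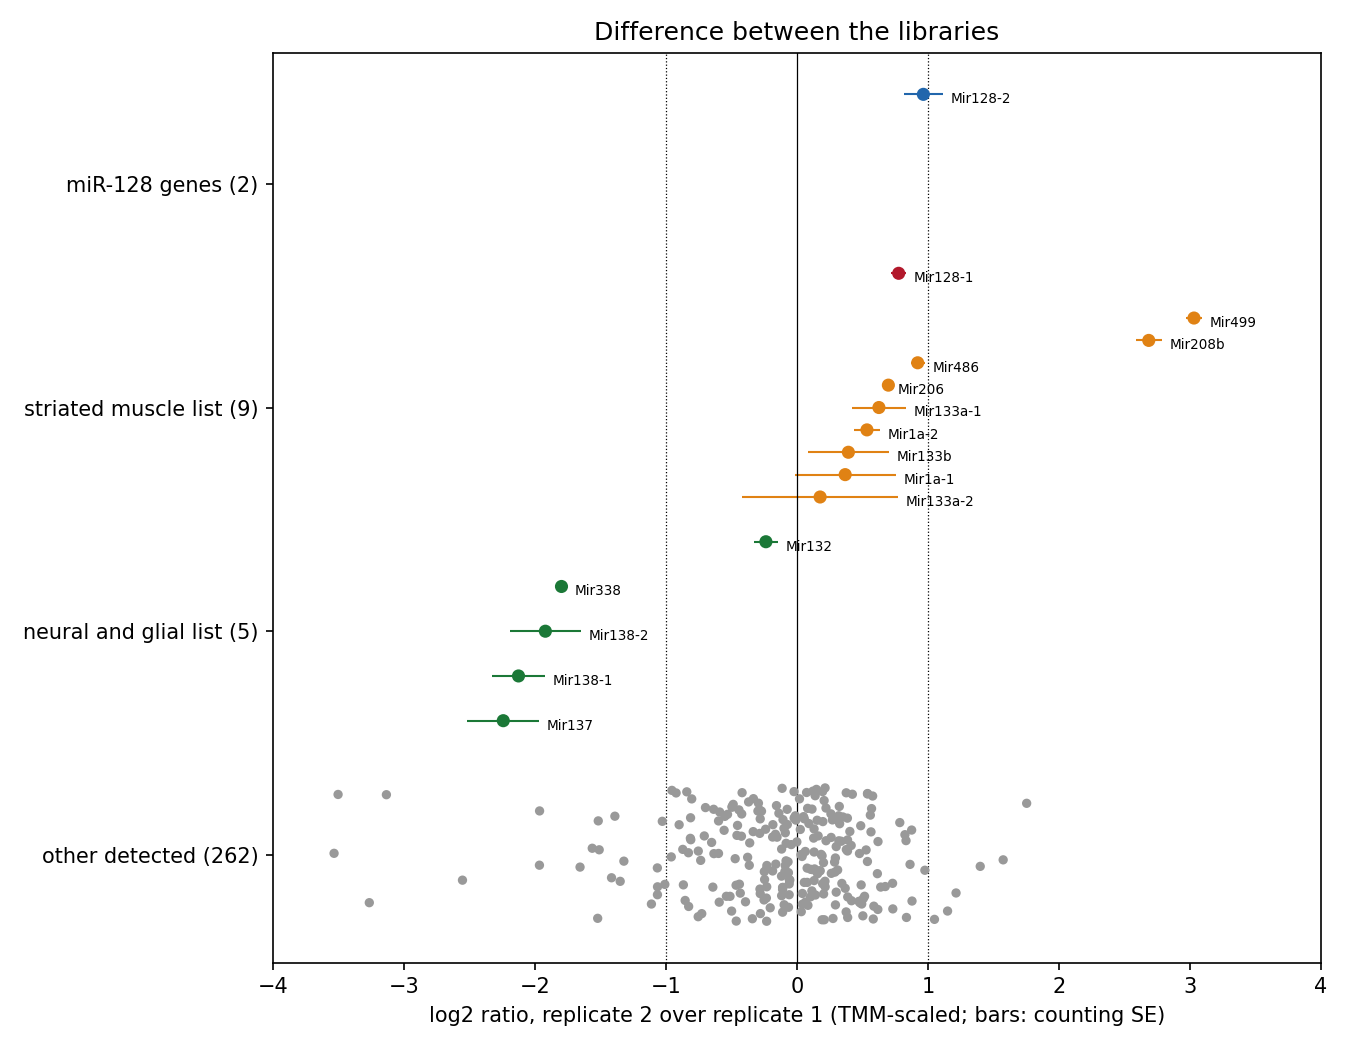
Log2 ratio of replicate 2 over replicate 1 on the horizontal axis for the 2 miR-128 genes, 9 striated muscle genes, 5 neural and glial genes and the 262 other detected genes, with counting SEs as bars for the named genes and dotted lines at 2-fold. Mir128-1 (0.78) and Mir128-2 (0.97) lie on the right with the muscle genes, and the 5 neural and glial genes lie left of 0.

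Markers of other cell types did not differ between the libraries in a single direction. Mir126a of endothelium had a log2 ratio of replicate 2 over replicate 1 of 0.42. Mir143 and Mir145a of smooth muscle were lower, at −1.01 and −1.06, and both were called. Of 4 leukocyte genes, Mir223 (−1.52) and Mir142 (−1.32) were called lower, while Mir150 and Mir155 differed by 0.04 and 0.16. Mir451a and Mir144 of red cells differed by −0.81 and −0.28 and were not called. The part of these cell types in the difference of the miR-128 genes was not tested.

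The genes whose levels over the 2 libraries were nearest to each miR-128 gene were taken by the distance of log2(CPM + 1), which over 2 libraries is a likeness of level more than of pattern. For Mir128-1 these were, in order, Mir486, Mir299a, Mir425, Mir1839 and Mir328, at distances from 0.337 to 0.540. Mir486 was the nearest, at 549 and 1006 CPM, and the only 1 of the 5 with a difference between libraries (0.92) as large as that of Mir128-1. The other 4 differed by 0.03 to 0.26. For Mir128-2 they were Mir30c-1, Mir3068, Mir378d, Mir381 and Mir136, at distances from 0.403 to 0.493. Mir30c-1, which lies in Nfyc, had 93.8 and 137 CPM.

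The first 8 bases of the 3p strand, ucacagug, also occur in 5 other mature mouse microRNAs of the RefSeq table, at other positions. In miR-27a-3p and miR-27b-3p they are bases 2 to 9, 1 base further in than in miR-128-3p, and capitals mark the 7 bases of its seed.
miR-27a-3p: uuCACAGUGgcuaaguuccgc
miR-27b-3p: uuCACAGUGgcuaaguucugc
Their own seeds, UCACAGU, are therefore shifted by 1 base from the seed of miR-128-3p. In miR-101a-5p, miR-3073b-5p and miR-682 the letters begin at bases 8, 5 and 7. The genes with the overlapping seed were more abundant in placed reads. Mir27a had 2376 and 2135 CPM, 4.82 and 2.61 times the level of Mir128-1, and Mir27b had 10116 and 10252 CPM, 20.5 and 12.5 times. Reads of miR-128-3p of 18 to 21 bases from its first base match both miR-128 genes and are missing from the level of Mir128-1. The ratios are therefore of placed reads and not of the mature strands. Unlike the miR-128 genes, Mir27a and Mir27b differed little between the libraries, at −0.11 and 0.07 on the log2 scale.

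The miR-128 pair was further set beside the other microRNAs made from 2 numbered genes. There were 43 such pairs, and in 15 of them both genes were detected. By summed CPM the miR-128 pair was at rank 4 of the 43, after Mirlet7f, Mir16 and Mir196a, and ahead of Mirlet7c and Mir26a. Reads that match both genes of a pair are missing from these sums, and the part lost was not tested for any pair. The ranks and shares thus describe placed reads and not the abundance of the microRNAs. Its sum of 757 CPM compares with 5168, 1658 and 1469 CPM for the first 3 and with 507 and 494 CPM for the next 2. The Mirlet7f pair leaned further to 1 gene, with 96.2% and 96.6% of its counts on Mirlet7f-2, whereas Mir16-1 held 80.7% and 80.8% of the Mir16 pair. Mir26a-1 held 62.8% and 65.8% of the pair with Mir26a-2, which lie in the phosphatase genes Ctdspl and Ctdsp2. Among the 15 pairs, the median share of the leading gene was 71.9% in each library, and 5 of the 14 others had a higher share than Mir128-1 in each library. The log2 ratio of Mir128-1 to Mir128-2 moved by −0.19 from replicate 1 to replicate 2, which was the median size over the 15 pairs. In placed reads, the lean to Mir128-1 and its small shift between libraries were thus within the range of the other pairs. Over all 138 genes with numbered copies, 38 were detected, and 3 of these had a higher mean than Mir128-1 and 20 a higher mean than Mir128-2.

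**Figure D4:**
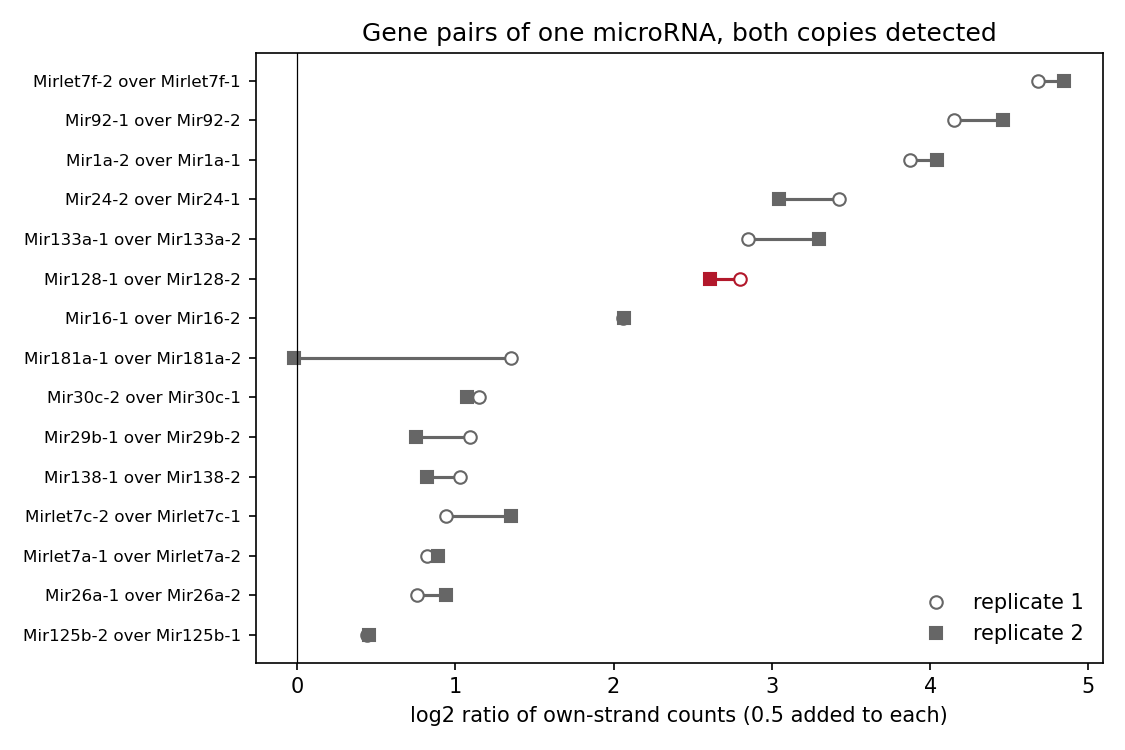
Log2 ratio of the more abundant to the less abundant gene (own-strand counts with 0.5 added to each) in the 15 microRNA pairs with both genes detected, in replicate 1 (open circles) and replicate 2 (filled squares). The miR-128 pair, in red, is the sixth from the top by replicate 1, with ratios of 2.80 and 2.61.

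Both miR-128 genes are carried in protein-coding hosts, as are 969 of the genes counted. Of those 969, 120 were detected, with a median of 157 CPM, and of the 1233 others 158, with a median of 95.4 CPM. Mir128-1 was above the median of the detected host-borne genes, with 34 of them higher, and Mir128-2 was below it, with 66 higher. The detected host-borne genes had a median difference between libraries of 0.03 on the log2 scale, 62 higher and 58 lower in replicate 2. The messenger RNAs of R3hdm1 and Arpp21 were not analysed here.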

How the data were processed

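Small RNA was sequenced from gastrocnemius in 2 libraries of 1 group. The authors deposited raw read counts for each microRNA gene, made on mm10 with GENCODE M21 according to the notes that accompany each library. For the aligner and the counter, names were not given in the sources used here. Rows that name no gene stayed out of library sizes. Of all reads listed, 20.7% and 15.9% were own-strand counts of microRNA genes, 70.07% and 72.33% had several matching places, 7.48% and 9.83% were unmapped and 1.73% and 1.90% lay outside genes.

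From the own-strand counts, CPM over their total (1950204 and 2291821) and exact Clopper-Pearson 95% intervals were computed. Genes with 10 or more counts in each library were tested by an exact binomial test conditional on their total, with library sizes scaled by TMM (edgeR 4.0.16), with Benjamini-Hochberg adjustment over all 278 and a minimum of 2-fold. Log2 ratios add 0.5 counts. The quasi-likelihood test needs a second group and was not run. The test was checked on counts simulated without a spread between samples, so the check does not cover such a spread. Hairpins were aligned with Biopython 1.88. Further software was scipy 1.17.1, pandas 2.3.3 and numpy 2.4.6 under Python 3.11.15, matplotlib 3.10.9 for figures, and R 4.3.3 with DESeq2 1.42.0 for size factors. Alternatives changed strand, denominator, scaling, count and fold minimum, spread and libraries.

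The 2 genes, the gene lists and the tests were chosen with earlier results of these data known. Named genes are the 2 members, the 5 detected genes nearest each in level, the miR-27 genes, the 6 pairs of numbered copies with the highest sums, the most abundant genes of the neural and muscle lists and the cell type markers. Other genes were named after their values were seen: the neighbours in rank, the remaining listed genes and the holders of the same letters.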

Additional observations from a re-analysis of the deposited data

Results flagged for a closer look

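Of the reads listed, 70.07% (replicate 1) and 72.33% (replicate 2) had several matching places and were counted in no gene. They are given here because they lie outside the counts used, and reads of the identical miR-128-3p strand of up to 21 bases from its first base match both miR-128 genes. How many of them are miR-128-3p was not tested.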

How the results depend on the processing

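No paired analysis was possible because there is only 1 group. Of 55 alternative values, 42 kept their direction and side of the threshold or moved by less than the spread between libraries. None was reversed. Leaving out 1 of 2 libraries always moves a mean level by less than their SD. The counts of the pair were also the same on either strand, so these alternatives could only come out unchanged. With a spread assumed or estimated, the 2 genes kept their side because neither was called at 2-fold, although their adjusted p rose. With reads of either strand, whose total is smaller, the mean level was 906 CPM for Mir128-1 and 1048 CPM for the sum. Scaled to all reads listed in place of gene counts, the means were 116 for Mir128-1, 18.01 for Mir128-2 and 134 for the sum. Mir128-1 then had 102 in replicate 1 and 130 in replicate 2, and Mir128-2 had 14.7 and 21.4. Replicate 2 stayed the higher library, but by a smaller factor than over gene counts. Own-strand counts were 20.7% and 15.9% of the reads listed, so this denominator lowers the ratio of every gene alike. The number of genes higher in replicate 2 thus depends on the denominator, and no test was run with this one. Without replicate 1 or without replicate 2, Mir128-1 ranged from 493 to 817 CPM, Mir128-2 from 70.8 to 134 CPM and the sum from 564 to 951 CPM. Mir128-1 (0.78) and Mir128-2 (0.97) were called higher in replicate 2 with no fold minimum and with a minimum of 1.5-fold, and Mir128-2 also with DESeq2 size factors (1.07), a scaling that shifts every gene by the same amount. The number of called genes went from 33 to 153 with no fold minimum, to 68 at 1.5-fold and to 7 with the estimated coefficient of variation, by the construction of each rule. The 3 scalings, which differ only in a shift common to all genes, called 31 to 34 genes. Of these, 7, 7 and 10 were higher in replicate 2 with TMM, library totals and DESeq2 size factors. Counting limits the ratio of Mir128-2, with a SE of 0.148 on the log2 scale. The spread between samples rests on 2 libraries of 1 group and is poorly known.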

Other observations

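In 14 of the 15 microRNA pairs with both genes detected, the same gene led in both libraries, as Mir128-1 did. The exception, named after its values were seen, was Mir181a, where Mir181a-1 had 279 counts and Mir181a-2 had 109 in replicate 1, and 225 and 228 in replicate 2.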
